A study of Mus musculus with 54 samples.

Results

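The nuclear genes of oxidative phosphorylation were followed through steady-state mouse blood formation and through the first days after transplantation of haematopoietic stem cells. Members were the rows of the deposited count table whose symbols begin with Nduf, Uqcr, Cox4 to Cox8 or Atp5, the rows Sdha to Sdhd, and Cycs and Cyc1, with a count in at least 5% of the annotated cells. Of 23154 rows, 94 matched by name and 89 were members. Members were assigned to complexes by symbol. There were 36 complex I genes, 7 complex I assembly factors (Ndufaf genes), 4 complex II subunits and 9 complex III genes. The others were the cytochrome c gene Cycs, 15 complex IV genes and 17 genes with ATP synthase names. Ndufa4, now known as a subunit of complex IV, was thus counted in complex I throughout, and Atp5sl, annotated as Dmac2, with ATP synthase. The 5 rows left out were Ndufa4l2 and Cox8b (a count in 0.348% of cells each), Cox7b2 (1.04%), Cox8c (1.39%) and Ndufs5, which held 0 counts in every cell; whether the counting left it out was not tested, and the 0 is not read as a lack of expression. Just inside the limit lay Cox7a1 (9.26% of cells) and Cox6a2 (9.95%). The mitochondrially encoded subunits were not analysed here, because the table held 0 rows of mitochondrial genes.

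Each of 2879 cells of C57BL/6 mice aged 8 to 10 weeks had been sequenced on its own by a modified Smart-seq2 method that reads the 3′ ends of mRNA, in 54 libraries, each holding the cells of 1 or several sorted populations or collection days. The authors' annotation covered 2301 cells: 1270 steady-state cells of 28 sorted populations and 1031 transplanted cells, marked GFPP in the annotation and collected on days 1, 3, 5 and 7. Steady-state populations were read in classes. The iHSC class (immunophenotypic stem cells, the reference group) held LT_HSC, Fraction I, Fraction III, ESLAM and ESLAMSK, and the iMPP class (immunophenotypic multipotent progenitors) held ST_HSC, LMPP, MPP1 to MPP4, Fraction II, HPC2 and HPC3. The other classes were the CMP, GMP and MEP progenitors, CLP (common lymphoid progenitors), MK (megakaryocytes), erythroblasts (EryA and EryB), myeloid cells (granulocytes, monocytes and macrophages) and lymphocytes (CD4 T, CD8 T, B and NK cells). The labels gave the tissue of the libraries as bone marrow, spleen or both; 4 of the 7 day 5 libraries (L66, L68, L69 and L70) were labelled spleen alone. No transgene, donor cell preparation, conditioning of the recipients or number of animals was given in the sources used here. Counts were summed over at least 5 cells of a group within a library, and the library was the replicate, so each p-value measures the spread between libraries, which may be technical.

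Annotated cells held 20013 to 1943315 counts (median 203971), and depth differed with the groups: the median cell held 121266 counts in iHSC, 339200 in iMPP, 613520 in the progenitors. For day 1 cells the median was 109047, for day 3 cells 116651, for day 5 cells 257195 and for day 7 cells 273612 counts. The part of depth in the results was not tested. The 6 stem cell marker genes summed to 423 to 1556 CPM (counts scaled to a library total of 1000000) in the 12 iHSC libraries and 30 to 204 CPM in the 10 day 7 libraries. Neutrophil granule and primary granule genes (8 markers) reached 79275 to 209546 CPM in the 3 erythroblast libraries and 48374 to 205242 CPM in the 2 MK libraries, against 53173 to 96229 CPM in the myeloid libraries. The day 1 library L87 held 137231 CPM of these markers and 0 counts of the stem cell markers, against 2410 and 6225 CPM of neutrophil markers in the other day 1 libraries. In the iHSC reference the neutrophil markers stood at 27446 CPM in L1 and 25391 CPM in L54, against a median of 700 CPM. They reached 31176 CPM in iMPP (L39), 45802 CPM in lymphocytes (L3) and 35788 CPM on day 7. The part of these markers in the results was not tested. Annotation and labels differed in the populations named for L4 and L49. No 2 cells had identical counts.

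In oxidative phosphorylation, complexes I and II take electrons from NADH and succinate, complex III passes them to cytochrome c, and complex IV hands them to oxygen. Complexes I, III and IV pump protons as they do so, and ATP synthase makes ATP as the protons flow back. Adult haematopoietic stem cells are known for low mitochondrial respiration and reliance on glycolysis, and their differentiation is accompanied by a rise in mitochondrial activity. Nuclear respiratory factor 1 (NRF1), the ETS factor GABP and YY1 are known regulators of nuclear genes of this pathway.

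Promoter windows from 250 bases before to 50 after the start were read for the 74 of 89 members that have an entry in the RefSeq promoter table (build GRCm38.p6). Letters were searched on both strands, and motifs could overlap. The NRF1 letters (GCGCNT followed by GCGC) stood in 18 of 74 members (24.3%), against 5.19% of 27025 genes with a window of that length. The ETS letters CCGGAAG stood in 17 (23%, against 9.93%), the YY1 letters AANATGGCG in 11 (14.9%, against 2.76%), CCAAT in 34 (45.9%, against 41.1%) and TATAAA in 5 (6.76%, against 15.7%). Such a match describes the letters and not a bound site. Of the members called higher in iMPP, in the progenitors and on day 7 alike, 20 had a window. NRF1 letters stood in 5 of these 20 (25%), ETS letters in 6 (30%) and YY1 letters in 1 (5%). Among the 54 other members with a window the numbers were 13 (24.1%), 11 (20.4%) and 10 (18.5%). A link of letters to calls was not tested, and the printed genes do not stand for these shares. The 250 bases before the start, printed here 5′ to 3′ on the strand of the gene, are those of Cycs, whose RNA was called higher in 6 of the 9 comparisons with iHSC, of Atp5k, Cox6a1 and Cox6b1, which were called in iMPP, in the progenitors and on day 7, and of Cox6b2 and Cox7a2l, whose patterns differed from the rest. All 6 genes lie on the minus strand, and capitals mark matches to the NRF1, ETS, YY1 or CCAAT letters on either strand. The windows lie at chr6:50566570-50566819 (Cycs), chr5:108434400-108434649 (Atp5k), chr5:115348959-115349208 (Cox6a1), chr7:30626115-30626364 (Cox6b1), chr7:4753095-4753344 (Cox6b2) and chr17:83514334-83514583 (Cox7a2l).
Cycs: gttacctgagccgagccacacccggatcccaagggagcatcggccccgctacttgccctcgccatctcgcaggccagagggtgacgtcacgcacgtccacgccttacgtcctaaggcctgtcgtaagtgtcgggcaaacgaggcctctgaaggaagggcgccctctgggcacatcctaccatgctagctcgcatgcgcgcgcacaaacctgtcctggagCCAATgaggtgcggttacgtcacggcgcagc
Atp5k: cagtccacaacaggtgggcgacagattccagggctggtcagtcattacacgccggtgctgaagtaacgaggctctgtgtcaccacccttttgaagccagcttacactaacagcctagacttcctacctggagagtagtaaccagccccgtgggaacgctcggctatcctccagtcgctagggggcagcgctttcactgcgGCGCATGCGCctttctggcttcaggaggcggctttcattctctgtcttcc
Cox6a1: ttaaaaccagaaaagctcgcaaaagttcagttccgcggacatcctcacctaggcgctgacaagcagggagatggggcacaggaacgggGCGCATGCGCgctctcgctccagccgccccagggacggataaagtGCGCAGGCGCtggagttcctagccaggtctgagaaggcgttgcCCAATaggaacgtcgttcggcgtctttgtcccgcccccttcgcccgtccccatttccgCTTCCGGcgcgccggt
Cox6b1: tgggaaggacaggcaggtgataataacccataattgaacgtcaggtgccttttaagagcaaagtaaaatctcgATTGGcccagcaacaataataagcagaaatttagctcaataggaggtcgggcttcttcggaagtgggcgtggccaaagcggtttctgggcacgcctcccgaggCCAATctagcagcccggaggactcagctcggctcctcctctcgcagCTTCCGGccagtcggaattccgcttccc
Cox6b2: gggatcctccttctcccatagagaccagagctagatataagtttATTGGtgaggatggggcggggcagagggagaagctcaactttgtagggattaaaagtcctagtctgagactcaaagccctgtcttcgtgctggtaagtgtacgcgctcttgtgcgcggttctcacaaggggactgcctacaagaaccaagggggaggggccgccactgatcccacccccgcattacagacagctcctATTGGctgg
Cox7a2l: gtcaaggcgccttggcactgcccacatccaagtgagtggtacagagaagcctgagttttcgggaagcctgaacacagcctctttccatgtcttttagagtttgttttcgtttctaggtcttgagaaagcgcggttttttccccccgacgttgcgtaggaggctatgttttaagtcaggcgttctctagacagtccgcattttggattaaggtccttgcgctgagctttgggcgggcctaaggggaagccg
Atp5k held 1 NRF1 match, starting 50 bases before the transcript start. Cox6a1 held 2 NRF1 matches, 1 ETS match and 1 CCAAT, and Cox6b1 held 1 ETS match and 2 CCAAT. Cycs held CCAAT alone, Cox6b2 held 2 CCAAT, and the Cox7a2l window held none of these letters. That window lies inside the annotated span of Cox7a2l (83501918 to 83517330), so the bases before the annotated 5′ end were not read.

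Together the members made up 31714 ± 4872 CPM of the counts of iHSC (SD, n = 12 libraries; lowest 23074, median 31021, highest 40899). The level was 44656 ± 5113 CPM in iMPP (n = 17; lowest 33412, median 45082, highest 52572), 1.41 times that of iHSC, and the ranges of the groups overlapped. The progenitors had the highest level, with 65799 CPM in L15 (MEP) and 56598 CPM in L17 (CMP and GMP), 1.93 times iHSC. Both sums lay above every iHSC and iMPP library, but the GMP cells of L17 alone lay within the iMPP range (below). Mature classes lay near or below iHSC in this share of all counts: 33836 ± 3634 CPM in myeloid cells (n = 3), 29591 ± 1346 in lymphocytes (n = 4), 29389 ± 5440 in erythroblasts (n = 3) and 23352 ± 3803 in MK (n = 2), with CLP at 33773 ± 6441 (n = 2). These summed levels are a description with no test.

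**Figure D1:**
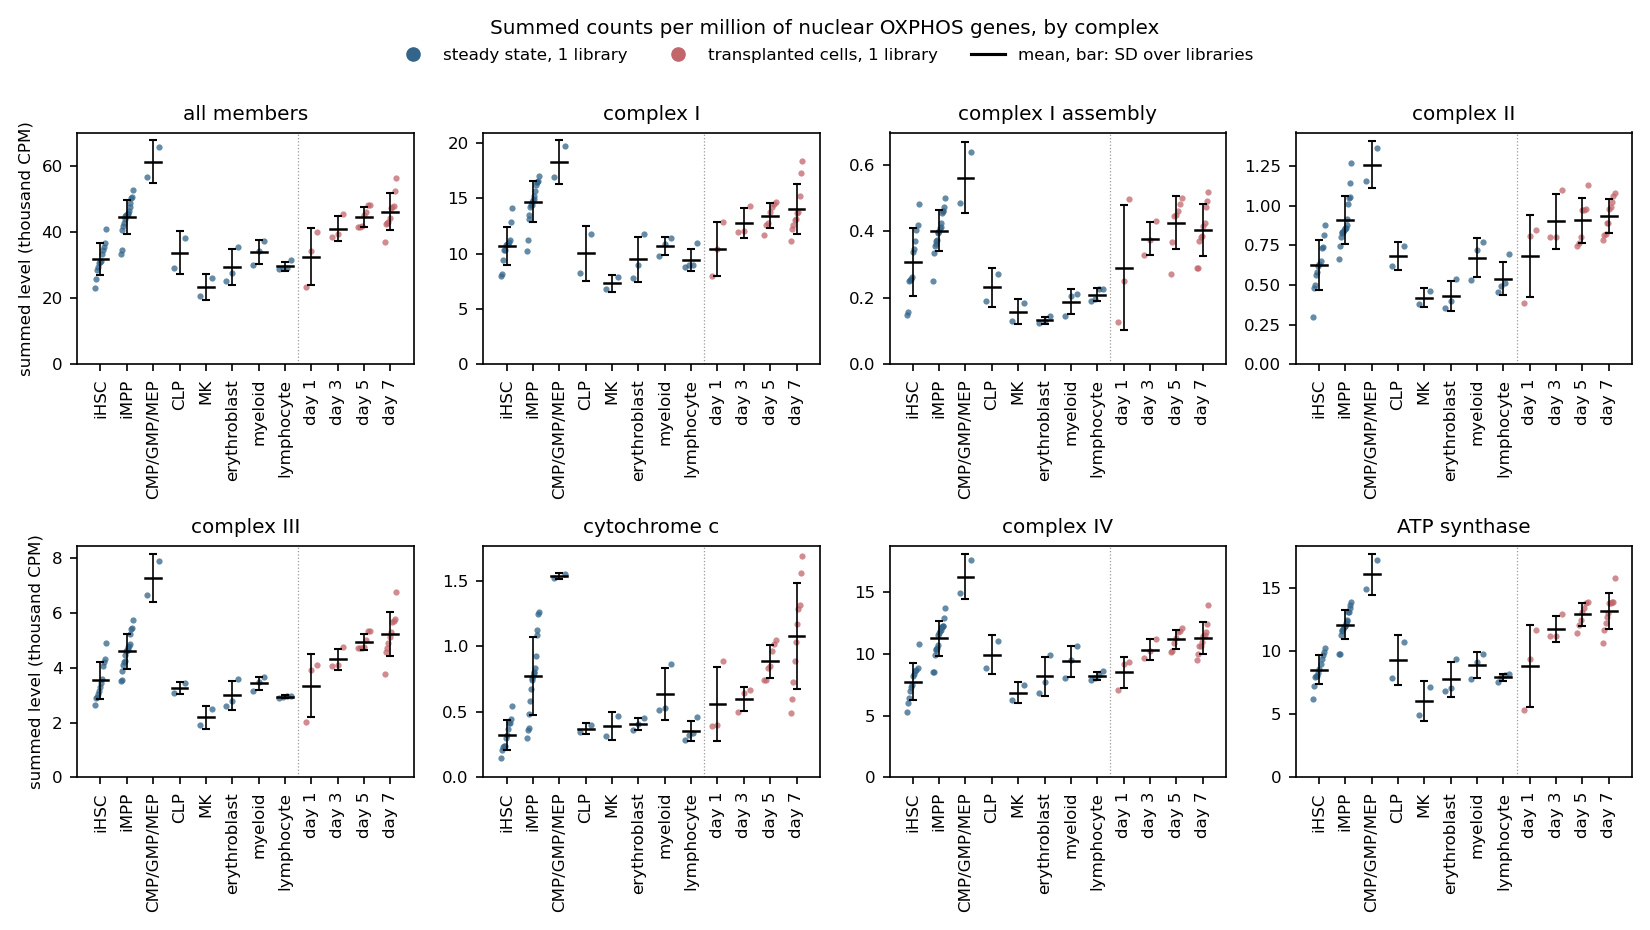
Summed level of the members in units of 1000 CPM (y axes, linear from 0) for all members and for each complex, by steady-state class (blue) and by collection day of transplanted cells (red). Points are libraries, and lines with bars are the mean and SD over libraries; in the panel of all members the progenitors stand highest at 56598 and 65799 CPM, and cytochrome c shows the steepest rise from iHSC, to 4.76 times in the progenitors.

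By complex, the step from iHSC to iMPP was 1.38 times for complex I (10647 ± 1723 to 14658 ± 1850 CPM), 1.46 for complex II (624 ± 158 to 909 ± 151), 1.30 for complex III (3536 ± 686 to 4589 ± 639), 1.45 for complex IV (7738 ± 1492 to 11228 ± 1419) and 1.42 for ATP synthase (8539 ± 1170 to 12095 ± 1163). Cytochrome c, a single gene beside sums of several genes, stood at 2.40 times (323 ± 116 to 774 ± 295 CPM). Single genes within a complex also rose steeply, among them Cox5a (below). In the progenitors the ratios were 1.72, 2.01, 2.05, 2.10 and 1.88 for the same complexes in order, and 4.76 for cytochrome c. Shares within the members do not depend on the scaling of the libraries. Complex I held 33.6 ± 1.6% of member counts in iHSC, 29.9% in the progenitors and 30.1% on day 5. Complex IV held 24.3 ± 1.8% in iHSC and 27.6% to 29.5% in myeloid cells, lymphocytes, erythroblasts, MK and CLP. Cytochrome c held 1.01 ± 0.31% in iHSC, 2.53% in the progenitors and 2.33 ± 0.84% on day 7.

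Across the 28 sorted populations the summed level ran from 23352 CPM in MK and 24677 in granulocytes to 62096 in CMP and 65799 in MEP, the last of these from 1 library each. The means of the 5 iHSC populations lay close together, from 29371 (ESLAMSK) to 31987 CPM (LT_HSC), within the spread of their libraries. The 2 LT_HSC libraries, L14 at 40899 CPM and L74 at 23074 CPM, were the highest and the lowest of all iHSC libraries. Among iMPP populations Fraction II was lowest at 34922 CPM, followed by MPP1 at 39924, and MPP3 was highest at 50670. Monocytes (42469 CPM) lay well above granulocytes, with 41918 and 43020 CPM against 19498 and 29857 CPM in the 2 libraries of each. GMP, from 1 library, had 49348 CPM, below CMP of the same library and below the MPP3 mean of 50670 CPM.

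Most members followed the sum. Over the 28 populations, which share libraries, the median Pearson correlation of a member with the sum of the others was 0.77 on the log2(CPM + 1) scale, and 76 of 89 members exceeded 0.5. The median was 0.84 for complexes II and III, 0.82 for complex IV, 0.81 for ATP synthase, 0.77 for complex I and 0.47 for the complex I assembly factors. Atp5o, a stalk subunit of ATP synthase, was closest to the sum (0.94), and Cox7a2l was farthest from it (-0.03). In 48 members MEP was the population of highest level, and in 13 it was CMP. The smallest spread relative to the mean, over 45 steady-state sums, belonged to Cox4i1, Uqcrh, Ndufa13, Atp5h and Cox8a, and the largest to Cox6a2, Cox7a1, Cox4i2, Cox6b2 and Atp5sl, 4 of them alternative subunits of complex IV.

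**Figure D2:**
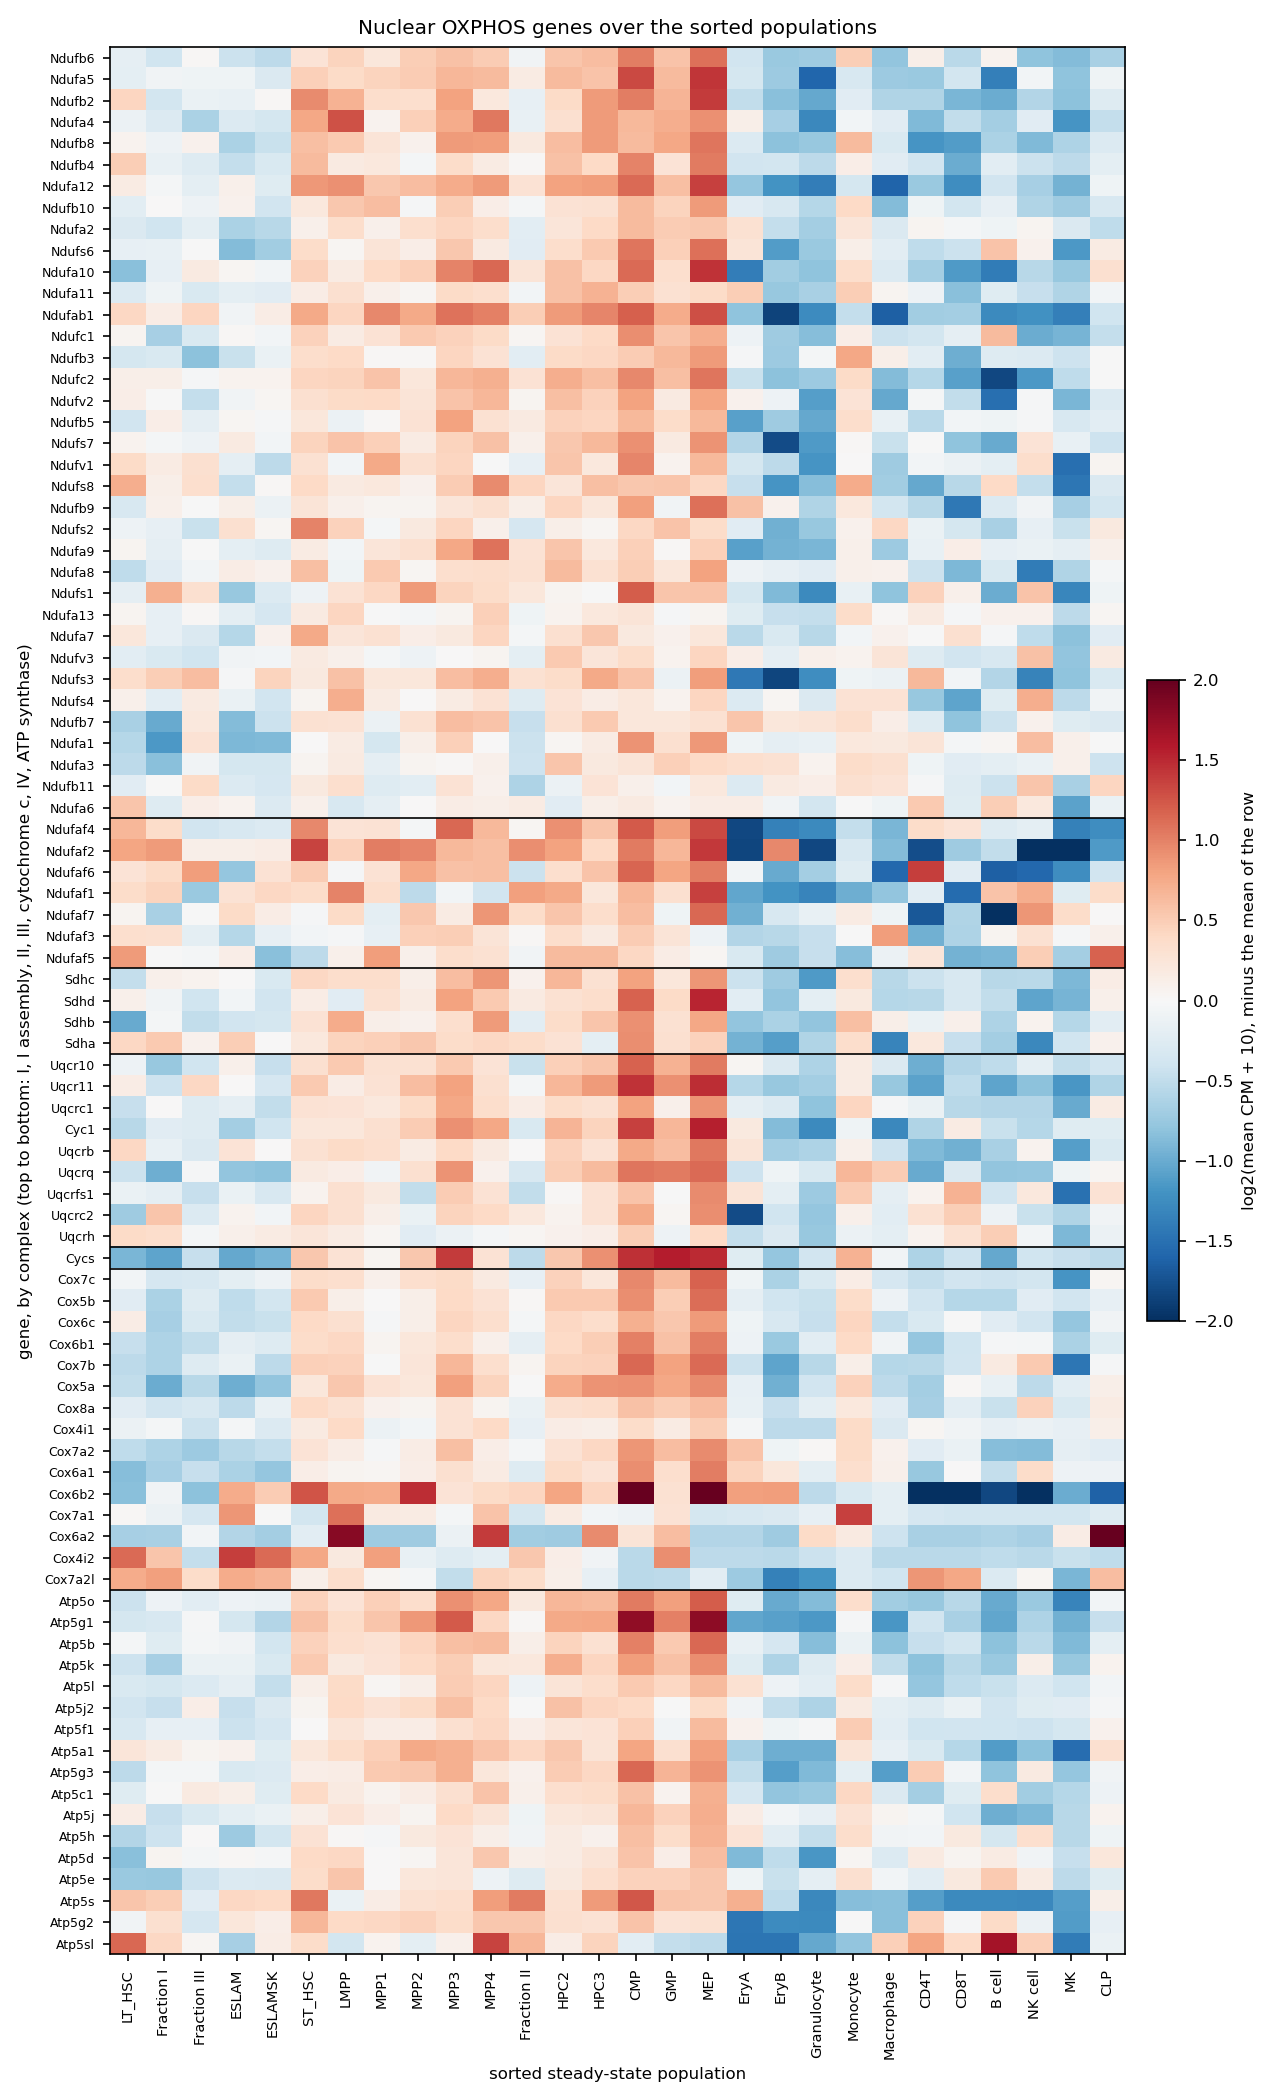
Level of each member (rows, ordered by complex) in the 28 sorted populations (columns), as log2(mean CPM + 10) minus the mean of the row; red is above and blue below the row mean, and colours stop at 2 and -2. Red columns at CMP, GMP and MEP run through nearly all rows, while Cox7a2l, Cox4i2, Cox6a2 and Cox6b2 break the pattern.

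For single genes, values below are TMM-scaled CPM (library totals adjusted by the trimmed mean of M-values) and fold changes are log2, with edgeR's quasi-likelihood test across all genes and Benjamini-Hochberg adjusted p under 0.05 called. All 89 members passed the filter on low counts in the fits of classes and of days. In iMPP against iHSC, 29 of 89 members were called higher and 0 lower, against 4.86% of all 13817 genes called higher and 5.39% called lower (10.2% in either direction). The members' median log2 fold change was 0.44, where that of all genes was -0.11, and 82 of 89 members had a positive value. Called members were 8 of complex I, 8 of complex IV, 7 of ATP synthase, 3 of complex III, 2 of complex II and Cycs; 0 of the 7 assembly factors were called.

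Cycs, the mobile electron carrier between complexes III and IV, rose most clearly from iHSC to iMPP. Its level in iHSC was 125 CPM at the lowest, 272 at the median and 451 at the highest, and in iMPP 266, 648 and 1129 CPM. Of the 17 iMPP libraries 14 lay above every iHSC library, and the log2 fold change was 1.27 ± 0.22 (SE; edgeR adjusted p = 0.00011). Cox5a, a nuclear-encoded subunit of complex IV, rose by 1.15 ± 0.22 (edgeR adjusted p = 0.00041, medians 278 and 791 CPM). Ndufa4, long listed with complex I (and counted there here) but now known as a subunit of complex IV, rose by 1.02 ± 0.20. Ndufa12, an accessory subunit of complex I, rose by 0.84 ± 0.17, Atp5g1, which encodes the ring-forming subunit c of ATP synthase, by 0.85 ± 0.19, Cox7b by 0.77 ± 0.18, Atp5o by 0.71 ± 0.17 and Ndufb3 by 0.71 ± 0.17. In complex II the iron-sulphur subunit gene Sdhb (0.82) and the membrane anchor gene Sdhc (0.69) were called; Sdhd had 0.38 (adjusted p = 0.22) and the flavoprotein gene Sdha 0.07 (adjusted p = 0.89; below 0 with RLE factors). Cyc1, cytochrome c1 of complex III, rose by 0.75. The most abundant complex IV transcript, Cox4i1, had 0.31 (adjusted p = 0.19). Without L4 and L49 the count fell to 13 higher and 1 lower, and under RLE scaling (edgeR's relative log expression factors) to 16 higher and 1 lower. In edgeR the sums of the 5 libraries that held both classes counted as independent; limma voom with the library as a random block called 57 higher and 1 lower.

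In 5 libraries that held both iHSC and iMPP cells the comparison could be made within the library. The summed members were higher in iMPP in 5 of 5 (ratios 1.11 to 1.45, median 1.39), and so were Cycs (1.07 to 3.2, median 2.56), complex I, complex IV and ATP synthase. Cox5a was higher in 4 of 5 (0.961 to 3.67, median 3.24) and complex III in 3 of 5. Cox7a2l was lower in 5 of 5 (0.512 to 0.833). In L15, MEP cells had 1.90 times the summed level of ESLAM cells and 4.72 times the Cycs level.

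In the CMP, GMP and MEP progenitors 45 of 89 members were called higher than in iHSC and 0 lower, against 3.24% of all genes called higher and 1.05% lower (4.29% in either direction). The members' median log2 fold change was 1.18, where that of all genes was -0.46. The calls covered 14 of 36 complex I genes, 2 of 4 of complex II, 7 of 9 of complex III, Cycs, 10 of 15 of complex IV and 11 of 17 of ATP synthase. Cycs stood at 1798 CPM in L15 and 1561 in L17, above every iHSC library (highest 451), a log2 fold change of 2.55 ± 0.36 (edgeR adjusted p = 2.5e-05). Atp5g1 followed with 2489 and 1716 CPM against at most 645 in iHSC (2.18 ± 0.31, edgeR adjusted p = 2.5e-05). Cyc1 rose by 1.99, Cox7b by 1.79, Cox6a1 by 1.72, Cox7a2 and Ndufa5 by 1.68 each, and Cox5b by 1.59. In complex II, Sdhd rose by 1.69 and Sdhb by 1.42, while Sdhc had 1.27 (adjusted p = 0.068). In 48 members both progenitor libraries lay above all iHSC libraries, against 6.27% of all genes. The comparison rests on 2 libraries: without L17 24 members were called, and without L15 only 2, Cycs and Atp5g1. Library totals without TMM gave 29 called, and so did the fit without L4 and L49, RLE factors gave 26 higher, and limma voom with the library as a random block gave 78 higher and 1 lower.

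**Figure D3:**
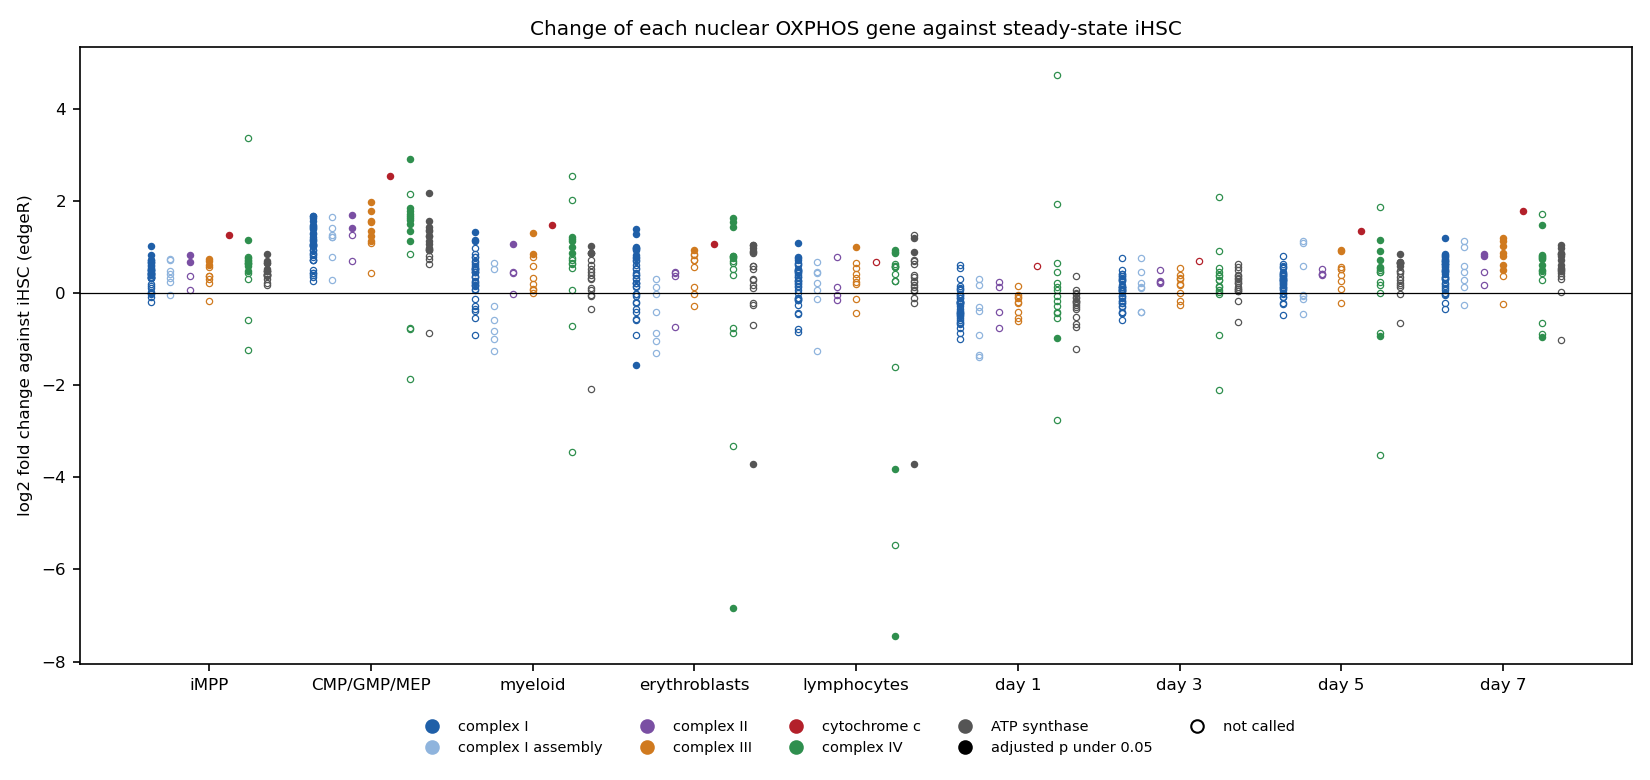
Log2 fold change against iHSC (y axis) of each of the 89 members, by complex (colours) within each class or day (x axis); filled points have an edgeR adjusted p under 0.05. Members shift upward in iMPP, in the progenitors and on day 7, cytochrome c lies at or near the top of these groups, and points below -2 are genes at low counts.

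In erythroblasts and lymphocytes most calls were higher with TMM and lower with library totals alone, while in myeloid cells more members were higher than lower under TMM, library totals and DESeq2. With TMM, 20 members were called higher and 3 lower in erythroblasts (background 9.76% and 5.41%, together 15.2%), 16 higher and 0 lower in myeloid cells (7.69% and 4.55%, together 12.2%), and 9 higher and 3 lower in lymphocytes (7.43% and 8.4%, together 15.8%). With library totals alone the same counts were 2 higher and 16 lower, 6 and 4, and 1 and 11. DESeq2 gave 18 and 6, 16 and 3, and 7 and 7. Median shifts of all genes under TMM were -0.42, -0.37 and -0.21, and under library totals -1.16, -0.89 and -0.72. The members' medians lay above these in each case, at 0.39, 0.46 and 0.30 under TMM and at -0.32, -0.0263 and -0.20 under library totals. Erythroblast calls fell to 11 higher and 2 lower without L16, 8 and 2 without L4, and 9 and 3 without L42. Myeloid calls fell to 3 and 0 without L12, 9 and 0 without L43, and 3 and 1 without L5. The neutrophil markers of 79275 to 209546 CPM in the erythroblast libraries stand beside these results, and their part in them was not tested.

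Within those limits some genes were called in all 3 mature classes. In lymphocytes the members were called at about the share of all genes, so the genes named there are single values and not a pattern of the members. Cox6a1 was called higher in all 3 classes under TMM (1.55 in erythroblasts, 1.18 in myeloid cells, 0.89 in lymphocytes), as were Atp5e, Atp5h and Ndufa3; with library totals alone Atp5h and Ndufa3 were not called in erythroblasts, Atp5e not in myeloid cells, and Atp5h, Cox6a1 and Ndufa3 not in lymphocytes. Cycs rose in myeloid cells by 1.48 ± 0.34 (687, 639 and 1087 CPM in L12, L43 and L5; without L5 it was not called) and in erythroblasts by 1.08 ± 0.34 (505 to 693 CPM in L16, L4 and L42, all above iHSC). Ndufs3, a core subunit of the electron-transfer arm of complex I, fell in erythroblasts from a median of 186 CPM in iHSC (lowest 100) to 74.3, 59.4 and 52.8 CPM, a log2 fold change of -1.56 ± 0.40 (edgeR adjusted p = 0.0048), with no overlap. Atp5sl fell there from a median of 23 CPM to 0.906, 2.90 and 2.18 CPM. In lymphocytes Cox6b2 was called lower (-3.81), and so was Atp5s, at 0 to 3.51 CPM against a median of 19.6 CPM in iHSC.

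Among transplanted cells the summed level of all members was 34270, 40143 and 23287 CPM on day 1 (L83, L84 and L87), and L87 is the library with the neutrophil markers. The day 3 libraries L79, L85 and L89 gave 45349, 38384 and 39359 CPM. The 7 libraries of day 5 gave 41382 CPM at the lowest, 45189 at the median and 48234 at the highest, and the 10 of day 7 gave 36825, 45721 and 56479 CPM. In these unscaled CPM every day 5 library lay above every iHSC library (highest 40899), whereas the day 7 range overlapped iHSC. With TMM factors the day 5 range overlapped iHSC as well. Day 5 then ran from 38741 CPM in L69 to 46447 CPM in L72, and iHSC reached 48591 CPM in L14. As ratios to iHSC the days stood at 1.03, 1.29, 1.41 and 1.45, and cytochrome c reached 3.34 on day 7 against 1.54 for ATP synthase, 1.5 for complex II, 1.48 for complex III, 1.46 for complex IV and 1.32 for complex I. The cells of a day belong to several predicted types, so a day's sum also reflects its mixture of types.

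On day 1, 0 members were called higher and 1 lower (2.34% and 0.801% of all genes, 3.14% in either direction), and on day 3 0 were called in either direction (1.01% and 0.105%, together 1.12%). DESeq2 called 1 higher and 2 lower on day 1 and 0 higher and 1 lower on day 3; at an unadjusted p under 0.05 the edgeR counts were 3 higher and 9 lower on day 1 and 5 higher and 1 lower on day 3. On day 5, 14 members were called higher and 1 lower (4.28% and 3.29%, together 7.57%), and on day 7 44 higher and 1 lower (10.4% and 10.4%, together 20.8%). The members' median log2 fold changes on the 4 days were -0.21, 0.16, 0.37 and 0.53, beside -0.26, -0.17, -0.12 and -0.10 for all genes. The day 5 calls were 6 of ATP synthase, 5 of complex IV, 2 of complex III and Cycs, with 0 of complexes I and II. The day 7 calls were 14 of complex I, 2 of complex II, 7 of complex III, Cycs, 8 of complex IV and 12 of ATP synthase. Without the libraries labelled spleen alone, 3 day 5 libraries remained and 4 members were called higher and 1 lower; library totals alone gave 26 higher and 1 lower, and limma voom with the library as a random block 56 and 1. With cells of the stem and multipotent types (tHSC and tMPP) alone, day 5 gave 20 higher and 1 lower and day 7 48 and 1. Over all cells of day 7, DESeq2 gave 28 higher and 4 lower and RLE factors 27 and 4.

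Cycs again led. It stood at 339, 766 and 402 CPM on day 1 (L83, L84, L87) and 616, 436 and 581 CPM on day 3 (L79, L85, L89), against 147, 322 and 532 CPM (lowest, median, highest) in iHSC. On day 5 it reached 687, 897 and 1008 CPM, with no overlap with iHSC, a log2 fold change of 1.35 ± 0.23 (edgeR adjusted p = 0.00024). On day 7 it reached 524, 1093 and 1791 CPM, and all but the lowest library, L47, lay above iHSC (1.79 ± 0.22, edgeR adjusted p = 3.3e-07). Cox5a had 631 to 1143 CPM on day 5 and 875 to 1381 CPM on day 7, the latter above all iHSC libraries (highest 796), with 1.16 ± 0.24 and 1.48 ± 0.22. Atp5g1 rose by 0.68 on day 5 and 1.05 on day 7. Complex III was represented by Uqcrq (0.94 and 1.14), Cyc1 (0.91 and 1.19) and, on day 7, the core protein gene Uqcrc1 (1.03). In complex II, Sdhb (0.85) and Sdhd (0.81) rose on day 7, Sdha had 0.19 (-0.0196 with RLE factors) and Sdhc 0.47, and 0 of 4 were called on day 5. The ATP synthase genes Atp5a1 and Atp5b rose by 0.80 and 0.86 on day 7. The comparisons of iMPP, progenitors and days share the iHSC libraries.

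Between successive days 0 members were called by edgeR. For day 3 against day 1 and day 5 against day 3 also 0% of all genes were called, and at an unadjusted p under 0.05 the members counted 6 higher and 1 lower, and 0 and 0. For day 7 against day 5 the background was 0.247% higher and 0.157% lower (0.404% together), 4 members were higher and 0 lower at an unadjusted p under 0.05, and limma voom with the library as a block called 2 higher where DESeq2 called 0. The members' median for that step was 0.20, beside 0.01 for all genes.

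The authors' predicted types (tHSC, tMPP, tCP, tGM, tME and tLym, each with numbered subtypes) were made from the cells' expression, so differences between types are a description. Among the lowest sums were tGM1 (22535 CPM at steady state, 24071 on day 7), tME1 (23371 and 26018) and tHSC1 (27375 at steady state, 22860 in 1 library of day 3), and the highest was tCP1 at 64448 CPM. Among the stem types tHSC2 stood at 35199 ± 3976 CPM (n = 4), and tHSC1 at 27375 ± 3690 (n = 6). The multipotent types were ordered tMPP1 (35393), tMPP4 (43827), tMPP2 (44245), tMPP5 (46937) and tMPP3 (51297) at steady state, where the middle 3 lay within their spread.

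Sums could also be followed over the days within a type. In tMPP1 the steady-state sum was 35393 ± 4066 CPM (n = 5). Day 3 cells of the type had 38200 ± 4961 CPM (n = 3), day 5 cells 39313 ± 2691 (n = 6) and the single day 7 library 31931. In tMPP2 the steady-state sum was 44245 ± 5319 CPM (n = 8), with day 3 cells at 41442 ± 1917 (n = 3) and day 5 cells at 45913 ± 3178 (n = 6). Day 7 cells of tMPP2 had 51153 ± 6804 CPM (n = 5), with L78 at 63170 and the others at 46303 to 48906 CPM, so the ranges of steady state and day 7 overlapped. In tMPP5 it was 46937, 46931 and 44437 CPM at steady state, day 5 and day 7.

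**Figure D4:**
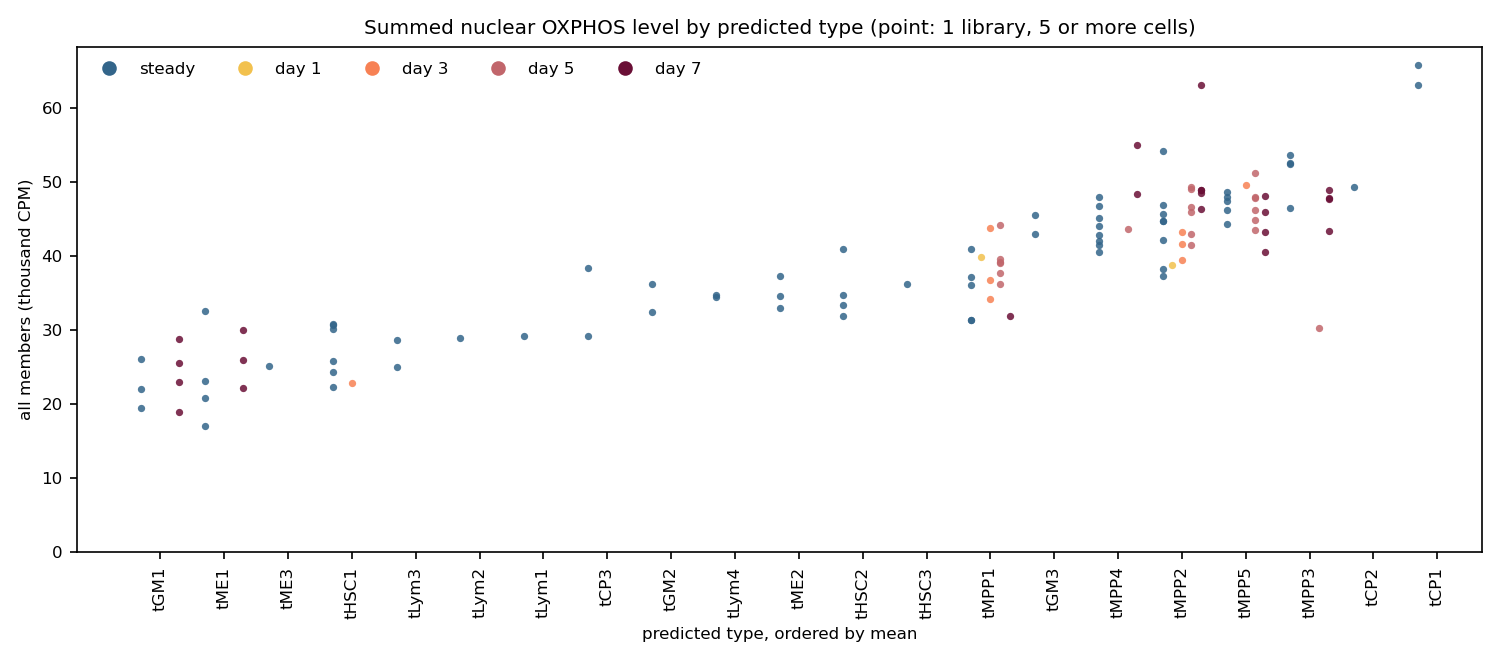
Summed level of all members in units of 1000 CPM (y axis, from 0) by predicted type (x axis, ordered by mean); each point is a library with 5 or more cells of the type, coloured by steady state or collection day. tGM1, tME1 and tHSC1 stand among the lowest, tCP1 is highest, and within tMPP2 the points of days 3, 5 and 7 spread around those of the steady state.

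Tests within a type called few members, of 88 that passed the filter in each fit. In tMPP2, day 7 against steady state, 2 were called higher and 1 lower (0.404% and 0.191% of all genes, together 0.595%), with a median of 0.25 over the members and -0.03 over all genes. Uqcrfs1, the Rieske iron-sulphur protein of complex III, stood at 270 to 469 CPM in the 5 day 7 libraries and 128 to 269 CPM in the 8 steady-state libraries, with no overlap (0.86 ± 0.20, edgeR adjusted p = 0.034). Atp5d, the delta subunit of ATP synthase, rose by 0.63 ± 0.15, and Cox6b2 fell by 1.33 on the log2 scale, with 19.8 to 88.4 CPM against 89.5 to 227 CPM and no overlap. Without L61 or without L78 0 members were called, and without L60 only 1. In tMPP2, day 7 against day 5, 0 members were called (0.0354% and 0.0213% of all genes, together 0.0567%); 23 were higher and 1 lower at an unadjusted p under 0.05, 6 and 1 without L78, and DESeq2 called 0. For tMPP1, day 7 against day 5, only the library L63 with 7 cells stood for day 7, and no test is read from it. In tMPP1, day 5 against steady state, 1 was called higher (0.323%) and 0 lower (0.22%), a background of 0.543% together: Cox4i2.

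Cox4i2 (chromosome 2, 152754173 to 152765037, mm10) encodes the alternative form of subunit 4 of complex IV, known for its regulation by oxygen in other tissues. It was a rare transcript. In tMPP1 cells it stood at 21.8 to 160 CPM in the 6 day 5 libraries and 1.52 to 22.7 CPM in the 5 steady-state libraries, which overlapped narrowly (2.76 ± 0.59, edgeR adjusted p = 0.015). The call was lost with sums of at least 10 cells and with limma voom. Against iHSC it stood at 27.7, 160 and 0 CPM on day 1, 85.6, 76 and 51.2 on day 3, and 17 to 108 CPM on day 5, where iHSC ranged from 0 to 54.2 CPM. The log2 fold changes were 1.93, 2.09 and 1.88, with no call (edgeR adjusted p = 0.094 on day 5), and day 1 without L84 gave -0.27. On day 7 the value was 0.49. Its share of Cox4i1 and Cox4i2 counts was 1.11% in iHSC. Day 3 libraries had 4.92 ± 0.88%, day 5 libraries 4.18 ± 1.8% and day 7 libraries 1.37%. A count was found in 15.7% of 305 iHSC cells, 60.7% of 61 day 1 cells, 64% of 125 day 3 cells, 64.3% of 336 day 5 cells and 38.3% of 389 day 7 cells. With every cell thinned to 20000 counts the expected shares were 8.12%, 53%, 45.2%, 39.6% and 17.5%. Lymphocytes had a count in 1 of 167 cells and erythroblasts in 1 of 70. Both classes were called lower, at up to 0.337 CPM per lymphocyte library, and the erythroblast call was lost without any of its 3 libraries.

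Cox7a2l (chromosome 17, 83501918 to 83517330, mm10) encodes a protein described as a factor in joining complexes III and IV into supercomplexes. Supercomplexes were not measured here, and the form of the protein made in these mice was not examined. Cox7a2l was the member that moved against the others. In iHSC of the day fit it stood at 355 CPM at the lowest, 714 at the median and 998.9 at the highest. It was 378, 279 and 397 CPM on day 1, 372, 388 and 338 on day 3, 299 to 528 on day 5 and 218 to 535 on day 7 CPM. Every library of these days lay below the iHSC median, and the ranges overlapped. Day 1 gave a log2 fold change of -0.98 ± 0.28 (edgeR adjusted p = 0.044) and day 3 gave -0.92 ± 0.28, which was not called (0.11). Day 5 gave -0.93 ± 0.20 (edgeR adjusted p = 0.0025), and for day 7 the value was -0.96 ± 0.18 (0.00014). The day 1 call was lost without any 1 of L83, L84 and L87, and under RLE scaling. In iMPP the value was -0.59 with an edgeR adjusted p of 0.0503, and under 8 alternatives, DESeq2 and library totals included, it passed the threshold. As a share of Cox7a1, Cox7a2 and Cox7a2l counts, it made up 60.6 ± 7.1% in iHSC, 38.5 ± 10% in iMPP, 22 ± 1.5% in the progenitors and 33.5%, 35.9%, 33.1% and 31.0% on the 4 days. Lymphocytes (55.7 ± 8.9%) and CLP (55.5%) were near iHSC. Cox7a2, the ubiquitous form, rose in iMPP (0.73), on day 5 (0.73) and on day 7 (0.83).

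**Figure D5:**
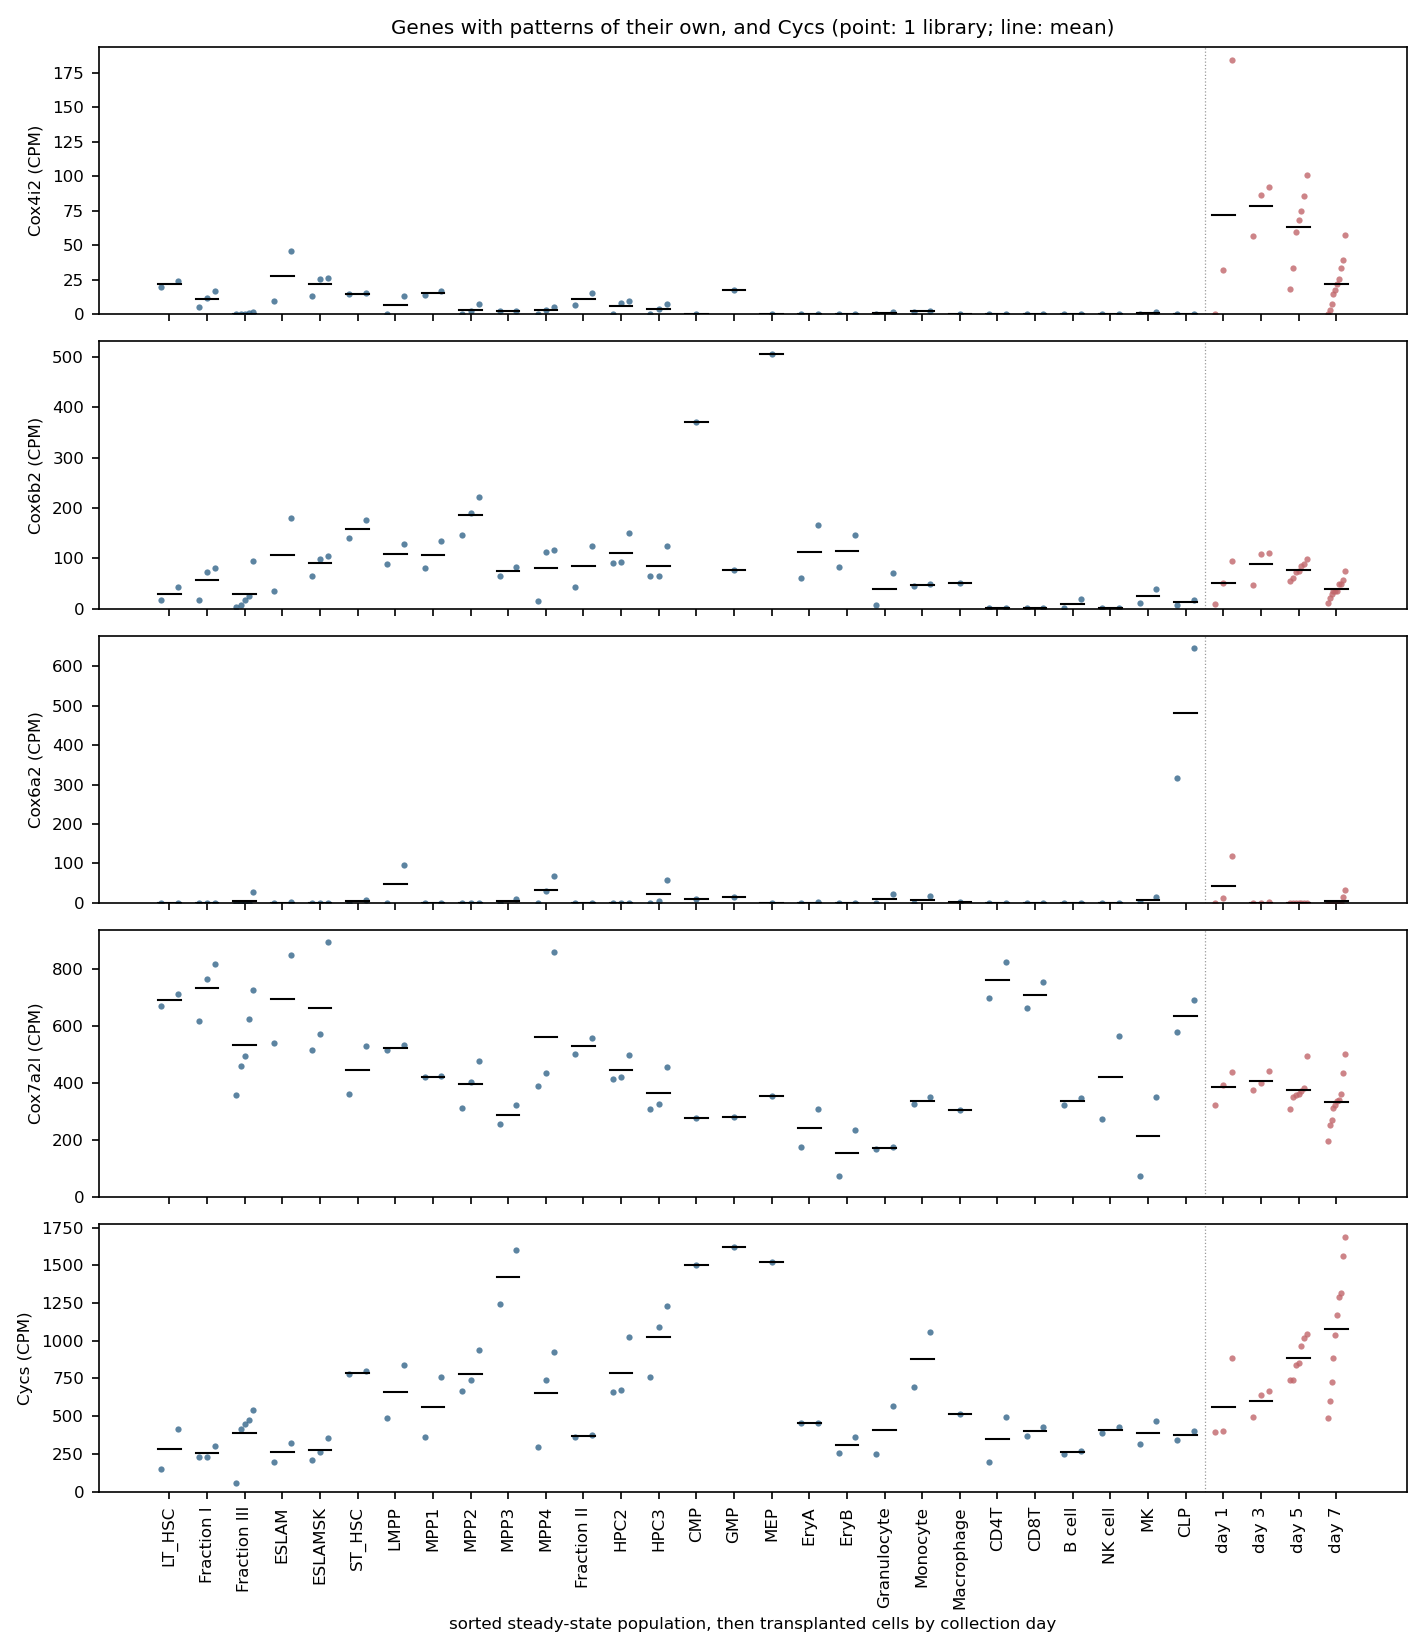
Unscaled CPM (y axes, linear from 0) of Cox4i2, Cox6b2, Cox6a2, Cox7a2l and Cycs in each sorted population (blue) and on each collection day (red); points are libraries and lines are means. Cox6a2 is high in CLP alone (317 and 645 CPM), Cox6b2 in MEP and CMP, and Cox4i2 in transplanted cells.

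Cox6b2 (chromosome 7, 4751792 to 4753094, mm10) encodes a form of subunit 6b known from testis. It stood highest in MEP (505 CPM) and CMP (371 CPM), where every cell held a count (19 of 19 and 22 of 22), and the thinned shares were 98.6% and 89.3%. NK cells (5 of 39 with a count) and CD4 T cells (6 of 46) were lowest, with thinned shares of 1.63% each. Against iHSC the progenitors had a log2 fold change of 2.91 (edgeR adjusted p = 0.0017; 597 and 245 TMM-scaled CPM in L15 and L17 against 6.88 to 186), which was not called without L15. Its share of Cox6b1 and Cox6b2 counts was 6.88% in iHSC, 16.1% in the progenitors, 13.1% in erythroblasts and 0.382% in lymphocytes.

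Cox6a2 (chromosome 7, 128205435 to 128206387, mm10), the form of subunit 6a known from heart and skeletal muscle, was high in CLP, at 317 CPM in L28 and 645 CPM in L43, and made up 34.1 ± 21% of Cox6a1 and Cox6a2 counts there. A count was found in 25 of 30 CLP cells and 45 of 78 MPP4 cells, against 17 of 305 iHSC cells; the thinned shares were 51.1%, 13.0% and 2.06%. LMPP followed CLP with 47.6 CPM on average. No test of CLP against another class was run.

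The genes Atp5g1, Atp5g2 and Atp5g3 encode the same mature subunit c of ATP synthase with different targeting sequences. Atp5g1 made up 43.8 ± 8.4% of their counts in iHSC, 50.4 ± 6.6% in iMPP, 64.8 ± 4.6% in the progenitors and 34.1 ± 2.4% in lymphocytes. Day 3 libraries had 35.1 ± 2.9%, day 5 libraries 46.3 ± 4.5% and day 7 libraries 52.5 ± 4.2%. Atp5g2 fell in share as Atp5g1 gained, to 18.5 ± 2.8% in the progenitors from 36.2 ± 9.3% in iHSC. In fold change Atp5g3 rose on day 5 (0.86) and day 7 (0.88), and Atp5g2 had 0.36 and 0.31 without a call.

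Other mitochondrial lists were read beside the members. Of 77 mitochondrial ribosomal protein genes, 15 were called higher in iMPP, 23 in the progenitors, 4 on day 5 and 25 on day 7, with 0 lower in these comparisons. All genes called higher made up 4.86%, 3.24%, 4.28% and 10.4% in the same order, so the 4 of day 5 lay near the background. Of 14 TCA cycle genes, 2 were called higher in iMPP (Fh1 and Mdh2), 4 in the progenitors (Cs, Fh1, Idh3a and Mdh2), 2 on day 5 (Fh1 and Mdh2) and 7 on day 7 (Cs, Dld, Dlst, Fh1, Idh3a, Mdh2 and Suclg1), with 0 lower. Assembly factors outside the rule gave 2, 3, 0 and 4 of 34 higher, among them Atpif1, the inhibitor of ATP synthase, at 0.90 in iMPP, 2.45 in the progenitors and 0.84 on day 7. Of 13 regulators of mitochondrial biogenesis, among them Nrf1, Gabpa, Yy1 and Tfam, 0 were called higher in these 4 comparisons and 1, Ppargc1a, was called lower on day 7; with 13 genes, so few calls cannot be told from those background shares. Ldhb, a lactate dehydrogenase subunit, was called lower throughout, by -1.33 in iMPP, -4.15 in the progenitors, -2.44 on day 5 and -3.13 on day 7, and Ldha rose by 1.12 on day 7. Of 93 cytosolic ribosomal protein genes tested, 1 was called higher and 0 lower in iMPP, 6 higher and 0 lower in the progenitors, 1 higher and 15 lower on day 5, and 3 higher and 26 lower on day 7. The shares of all genes called lower were 5.39%, 1.05%, 3.29% and 10.4%.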

How the data were processed

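Single cells of the sorted populations and of transplanted cells were sequenced in 54 libraries. Reads were processed with TopHat and HTSeq on mm10, per the submitters' processing notes; the authors deposited whole-number counts per gene and cell, and their annotation of population, day and predicted type was used as given. Counts were summed over cells of a group within a library (at least 5 cells), and the library was the replicate. Tests used edgeR 4.0.16 (R 4.3.3) with TMM factors, its filter on low counts, the quasi-likelihood test over all genes and Benjamini-Hochberg adjustment, called under 0.05. Steady-state classes, days, tMPP1 and tMPP2 had a fit each. On simulated counts the test recovered most genes changed in iMPP. It missed most of those changed on day 1 and in day 7 against day 5 within tMPP1 and tMPP2. Few calls in these comparisons therefore do not show that members did not differ. Recovery in iMPP or elsewhere at the members' own fold changes and at the spread fitted to these data was not tested. Alternatives included DESeq2 1.42.0, limma 3.58.1 voom with the library as random block, RLE factors and sums of at least 10 cells; library totals alone and leaving out L4 and L49 were chosen after seeing the data. CPM of summed complexes are not TMM-scaled. The 578 cells absent from the annotation and 120 transplanted cells of pooled days were left out of the comparisons. Members and lists were chosen with earlier results of these data known. Named genes were the called members (up to 8 per direction and comparison by p), the most abundant members of each complex, Cycs, Cyc1, the Sdh genes, the alternative subunits and the members of most and least spread; Atp5a1, Atp5s and the genes of other lists were named after their values were seen. Promoters came from RefSeq (GRCm38.p6). The motif letters were searched in a window that also held the 50 bases after the start.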

Additional observations from a re-analysis of the deposited data

Results flagged for a closer look

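Of 117 tests, each of 1 level within 1 group of 4 to 10 libraries, 15 found a library standing apart from the rest. The tests reuse libraries and overlapping sums, so the 15 cannot be set against the 1 in 20 that chance gives for independent tests. In lymphocytes L54 was highest for all members (31603.9 CPM, next 29020.2) and for complex I (10916.4 CPM, next 8989.39). Among the Fraction III libraries L50 was lowest for cytochrome c (58.9128 CPM, next 412.1), L76 was highest for Cox6a2 (27.4579 CPM, next 0.53901) and L49 was highest for Cox6b2 (94.3268 CPM, next 25.2709).

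On day 5 L66, the library with 22192 CPM of neutrophil markers, was highest for Cox7a2l (493.361 CPM, next 381.105). On day 7 L78 was highest for Cox6a2 (33.8012 CPM, next 15.4154). In tMPP1 cells of day 5 L72, labelled bone marrow alone, was highest for complex IV (11562.9 CPM, next 9600.54), Cox7a1 (42.1741 CPM, next 8.63662) and Cox5a (774.672 CPM, next 621.217). In steady-state tMPP1 cells L50 was highest for Cox5a (1654.01 CPM, next 639.576). In tMPP2 cells of day 7 L78 was highest for all members (63170.3 CPM, next 48906), complex I (21666.2 CPM, next 15018.9), complex III (7141.65 CPM, next 5518.88) and Cox5a (1745.66 CPM, next 1134.96).

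Some sums of cells outside the comparisons lay above the highest iHSC library (40899.1 CPM). The summed counts of the 578 cells absent from the annotation, of which 186 had at least 20000 counts, gave 51324.6 CPM, while the median of the single cells was 33348.7 CPM. Transplanted cells of pooled days gave 58923.3 CPM in L77 and 44039.2 CPM in L80, and 33158.9 CPM in L88, below that iHSC library.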

How the results depend on the processing

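No paired analysis was possible because the library labels carry no shared replicate numbers; this concerns replicate numbers alone, since limma voom took the library as a random block and 5 libraries gave ratios of iMPP to iHSC within the library. Members called numbered 17 in iMPP and 26 in the progenitors with RLE factors. With limma voom they numbered 58 in iMPP, 79 in the progenitors, 28 in myeloid cells, 23 in lymphocytes, 0 on day 1, 3 on day 3, 57 on day 5, 2 for day 7 against day 5, 3 for tMPP1 on day 5 and 5 for tMPP2 on day 7 against steady state. DESeq2 gave 3 on day 1, 1 on day 3, 1 for tMPP1 day 7 against day 5 (1 library on day 7, assumed to vary like the other groups) and 8 for tMPP2 day 7 against steady state. Library totals alone gave 29 in the progenitors, 10 in myeloid cells, 2 on day 3 and 27 on day 5. Without L4 and L49 the numbers were 14 in iMPP, 29 in the progenitors, 10 in erythroblasts, 8 in myeloid cells and 0 on day 1. Sums of at least 10 cells gave 21 in lymphocytes, 0 on day 1 and 0 for tMPP1 day 5 against steady state. Day 1 gave 0 without ribosomal protein genes and 0 with tHSC and tMPP cells alone, and day 5 gave 5 without libraries labelled spleen alone. The cause of these shifts was not tested.

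Leaving out 1 library at a time gave 2 to 24 calls in the progenitors, 10 to 13 in erythroblasts, 3 to 9 in myeloid cells, 9 to 13 in lymphocytes, 0 to 4 on day 1 and 0 to 4 in tMPP2 day 7 against steady state. It gave 1 in every fit of tMPP1 day 5 against steady state, and 0 for day 3 against iHSC, day 3 against day 1, day 5 against day 3 and tMPP2 day 7 against day 5. Where 1 library was left in a group it was assumed to vary like the other groups. Over genes not ribosomal, the summed members stood at 0.988 of iHSC in lymphocytes and 0.936 in myeloid cells. The cytochrome c ratio of progenitors to iHSC was 4.87 as a mean of the cells' own CPM, 5.10 with sums of at least 10 cells and 4.91 over genes not ribosomal. Of 1065 alternative values for named genes, 937 kept direction and call, 106 lost the call, 14 gained it and 8 turned in sign, none of them called. Cox4i2 on day 1 turned without L84, at -0.27 (leaving out 1 day 1 library gave -0.27 to 2.50). Sdha in iMPP, at 0.07 in the report, gave -0.0974 with DESeq2, -0.0933 with RLE factors, -0.16 with sums of at least 10 cells, -0.00739 without ribosomal protein genes and -0.0203 without L4 and L49; Sdha on day 7 gave -0.0218 with DESeq2 and -0.0196 with RLE factors. Depth limits the rare members Cox4i2, Cox6a2 and Cox7a1.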
